A study of Mus musculus with 15 samples.

Results

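The comparison described here sets the uterus 24 h after estriol against the uterus of vehicle-treated mice, on 6 of the 15 arrays of the series (3 per group). The members are the arrays titled as E3 at 24 h, replicates 1 to 3, and the vehicle arrays, replicates 1 to 3. The animals were ovariectomized CD-1 mice, and all 5 groups of the series were ovariectomized. The E3 24 h group received 250 ng of E3 in 100 µl of saline and was taken at 24 h. Further groups of 3 arrays received the same dose of E2 and were taken at 24 h, or received E2 or E3 and were taken at 2 h; the vehicle group received 100 µl of saline alone, and the sources used here do not give the time at which it was taken. E3 and E2 are read here by their usual meaning as estriol and estradiol; in structure estriol is estradiol with a further D-ring hydroxyl. Whole uterine RNA was hybridised to one-colour Agilent mouse arrays, 1 sample per array. Nothing in the labels says that the 3 arrays of a group came from separate animals, so each p-value below rests on how far these samples spread, and that spread may be technical.

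Oestrogens act on the uterus mainly through estrogen receptor alpha, a ligand-activated transcription factor present in the stroma, the epithelium and the muscle layer. In the ovariectomized rodent a single injection is known to be followed within hours by fluid uptake and early transcription, and later by growth and division of the epithelium. Estriol is known as a weaker and shorter-acting oestrogen in this tissue than estradiol and to be retained in the nucleus for less time.

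Signals below are the scanner software's processed intensities after scaling so that the 75th percentile of every array equals 1000, and differences are on the log2 scale of those signals. Before scaling, the 75th percentile was 1644, 1222 and 1053 in E3 24 h replicates 1, 2 and 3, and it lay between 1053 and 1854 over all 15 arrays. The share of probes well above background lay between 63.0%, in E3 24 h replicate 2, and 80.0%, in vehicle replicate 1. The uterine transcripts Esr1, which encodes estrogen receptor alpha, and Hoxa10, a homeobox gene that patterns the uterus, were above background on all 15 arrays. The E3 24 h arrays spread more than any other group. The median SD per probe was 0.273 in E3 24 h, against 0.160 to 0.197 in the other 4 groups, vehicle included (0.177). Correlations between arrays, across probes and therefore not over independent points, were 0.9685 to 0.9751 within E3 24 h and 0.986 to 0.992 within the others. E3 24 h replicates 1 and 3 shared slide 6 and scan day 1, replicate 2 was on slide 2 and scan day 2, and all vehicle arrays filled slide 1 on scan day 1, so slide 1 and vehicle cannot be told apart.

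Each E3 24 h array stood apart from the other 2 in its own set of genes. Over 13861 named genes above background on all 3 arrays, 34 genes in replicate 1, 136 in replicate 2 and 101 in replicate 3 lay 4-fold or more beyond the nearer of the others. Replicate 3 held exocrine pancreas transcripts. All 30 measured genes of a list of 34 pancreatic enzymes and acinar markers lay more than 10-fold above every one of the other 14 arrays. Their summed signal was 8816460 in E3 24 h replicate 3, against 3719 and 3453 in replicates 1 and 2 and 4199 to 5798 in vehicle. It was 60862, 13298 and 7157 in the E2 24 h replicates. Try5, a trypsinogen, had signals of 17.5, 28.9 and 422979 in E3 24 h replicates 1, 2 and 3, against 19.5, 20.6 and 18 in vehicle. Cpa1, carboxypeptidase A1, had 4.22, 5.39 and 405891 in the E3 24 h replicates. The acinar transcription factor Ptf1a had 4.75, 7.32 and 863 in E3 24 h. Of 9 islet markers 4, all hormones, also passed 10-fold over every other array, with Ins2 at 51.8, 30.0 and 11437 in E3 24 h. Of 10 measured salivary gland markers, 0 did. Of the 30 genes 15 could be tested in E3 24 h against vehicle, and 0 of those passed (limma, 6 arrays, adjusted p = 0.28 to 0.55; 15 arrays, 0.097 to 0.39); the other 15, Cpa1 and Ptf1a among them, were not above background on all 3 arrays of either group. The part of pancreatic transcripts in any other difference of replicate 3 was not tested. Genes below are given array by array.

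In genes where replicate 2 stood above the other 2, Krt87, a hair-type keratin, had signals of 36.5, 1322 and 31.8 in E3 24 h replicates 1, 2 and 3. A2m, a protease inhibitor, had 59.6, 4714 and 138, and Apobec2, a member of the deaminase family, had 17.7, 1601 and 15.6. In the same array Lrp2, the endocytic receptor megalin, was lowest, with 845, 111 and 638. Replicate 1 stood highest in Slc5a11, an inositol transporter, with 24548, 4073 and 4825, and lowest in Atp2c2, a Golgi calcium pump, with 67.4, 1145 and 881.

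**Figure D1:**
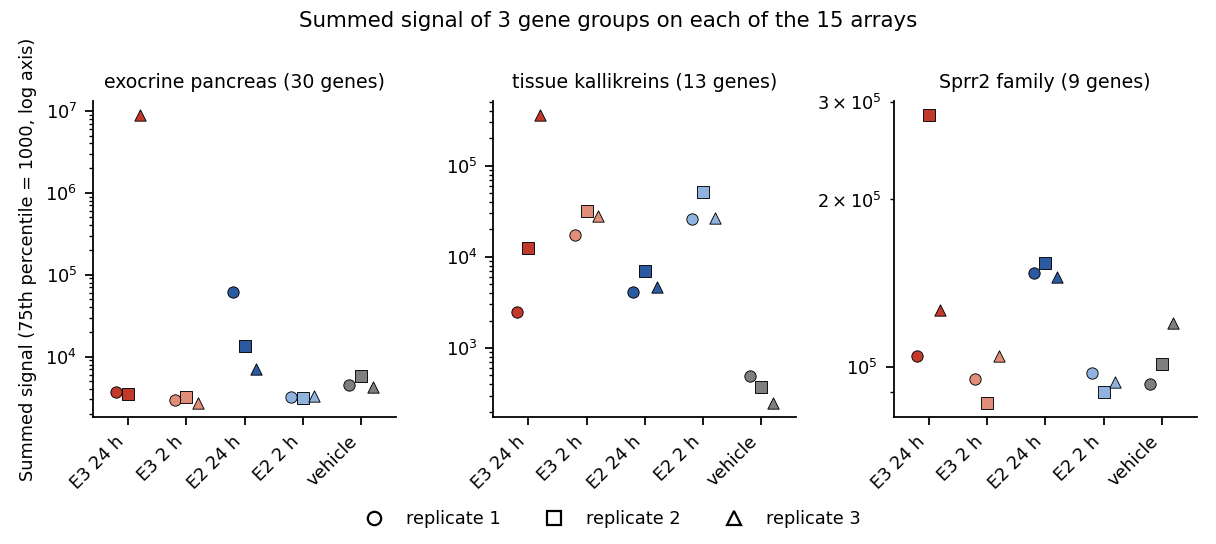
Summed scaled signal (log axis, 75th percentile of each array = 1000) of exocrine pancreas genes (30 genes), tissue kallikreins (13) and the Sprr2 family (9) on each of the 15 arrays. E3 24 h replicate 3 stands alone in pancreatic signal at 8816460 and highest in kallikreins at 356251, while replicate 2 is the E3 24 h array with the highest Sprr2 signal.

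Promoters of 4 genes that carry the results below are shown. Klk1 and Sprr2f are from families in which many, but not all, measured members were higher than vehicle. Col1a2 is from the matrix genes called in both fits below, and Mcm2 is from the replication genes that were low. Each line gives 250 bases before and 50 bases after the annotated start from RefSeq, build GRCm38.p6, on the gene's strand: Klk1 chr7:44225110-44225409 (+), Sprr2f chr3:92364937-92365236 (+), Col1a2 chr6:4505368-4505667 (+) and Mcm2 chr6:88898731-88899030 (-). Capitals mark matches, on either strand, to AGGTCA (the half-site of the estrogen response element), GGGCGG (the GC box) and TATAAA (the TATA box).
Klk1: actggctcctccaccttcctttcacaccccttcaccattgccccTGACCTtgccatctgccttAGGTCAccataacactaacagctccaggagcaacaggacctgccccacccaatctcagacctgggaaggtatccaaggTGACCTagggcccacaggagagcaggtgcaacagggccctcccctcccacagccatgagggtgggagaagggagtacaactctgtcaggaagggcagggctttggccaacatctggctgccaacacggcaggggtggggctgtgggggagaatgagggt
Sprr2f: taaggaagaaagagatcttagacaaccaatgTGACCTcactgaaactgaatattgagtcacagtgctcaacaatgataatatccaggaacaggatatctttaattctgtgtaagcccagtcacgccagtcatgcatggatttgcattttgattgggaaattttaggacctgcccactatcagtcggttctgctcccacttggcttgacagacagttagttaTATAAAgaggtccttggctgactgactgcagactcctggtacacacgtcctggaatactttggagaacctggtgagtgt
Col1a2: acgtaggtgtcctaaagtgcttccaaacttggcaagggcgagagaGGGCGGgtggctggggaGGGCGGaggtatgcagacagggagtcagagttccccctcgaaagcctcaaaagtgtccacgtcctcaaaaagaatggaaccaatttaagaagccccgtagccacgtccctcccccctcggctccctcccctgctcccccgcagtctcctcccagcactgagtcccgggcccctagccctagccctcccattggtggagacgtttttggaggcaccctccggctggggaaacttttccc
Mcm2: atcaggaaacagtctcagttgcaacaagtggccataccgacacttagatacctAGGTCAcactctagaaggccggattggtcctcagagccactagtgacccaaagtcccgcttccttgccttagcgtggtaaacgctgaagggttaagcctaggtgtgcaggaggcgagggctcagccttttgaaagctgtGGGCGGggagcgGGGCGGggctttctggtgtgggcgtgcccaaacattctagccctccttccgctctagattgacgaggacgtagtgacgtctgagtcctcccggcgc
Klk1 held 3 half-sites, Sprr2f held 1 half-site and 1 TATA box, Col1a2 held 2 GC boxes, and Mcm2 held 1 half-site and 2 GC boxes. None of the 4 held the spaced palindrome GGTCANNNTGACC in this window. Among 32851 mouse promoters of the same length, 16.3% held the half-site, 35.7% the GC box, 13.6% the TATA box and 0.070% the palindrome, searched on both strands. A match is a description of the letters and does not show binding.

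Against vehicle, 8 genes were higher and 3 lower 24 h after E3 in a limma fit to the 6 arrays (Benjamini-Hochberg adjusted p under 0.05 over 29410 probes), and type I collagen was among them. These are 0.0412% of 19420 genes called higher and 0.0154% called lower, and 19 probes in all were called, 0.0646% of those tested. Collagen I chains Col1a1 and Col1a2, the calcium-binding protein gene Tescl and the sperm-protein genes Ropn1l and Spem2 rose. A fit to all 15 arrays, in which the 5 groups share one estimate of the spread, called 2058 genes higher and 2270 lower (10.6% and 11.7%). It called all 19 of these probes as well; its use for the gene groups below was chosen after the data had been seen. In whole uterus, more cells of a type and more RNA per cell cannot be told apart, here and in every group below.

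Col1a1 (probe at chromosome 11, 95060800 to 95060859, build mm7) had signals of 69570, 83382 and 97048 in E3 24 h, against 22859, 19416 and 22040 in vehicle. The difference was 1.95 ± 0.17 on the log2 scale (SE, n = 3 each; limma, 6 arrays, adjusted p = 0.0414). The groups were far apart, with the lowest E3 24 h array above every vehicle array, and a second Col1a1 probe gave 2.08. Col1a2 (chromosome 6, 4493505 to 4493564) had 158914, 182340 and 180829 in E3 24 h, against 50206, 49723 and 52601 in vehicle, a difference of 1.77 ± 0.13 (limma adjusted p = 0.0362). A dim second Col1a2 probe gave -0.52 and did not pass (limma, 15 arrays, adjusted p = 0.11). Sparc, which encodes a collagen-binding matrix protein, was called through 1 of its 2 probes, at 1.51 ± 0.15 (limma adjusted p = 0.0482); its other probe had 58890, 57847 and 75162 in E3 24 h, against 24889, 24102 and 22143 in vehicle.

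Tescl (chromosome 7, 21120768 to 21120827), which encodes a protein like the calcium-binding tescalcin, had the largest rise among the genes called in this fit. Its signals were 649, 917 and 545 in E3 24 h, against 30.5, 23.8 and 28.4 in vehicle, a difference of 4.65 ± 0.23 (limma adjusted p = 0.011). It stood at 405, 296 and 552 in E3 2 h and at 55.6, 57.8 and 90.2 in E2 24 h, so its E3 24 h arrays lay above all 3 E2 arrays of the same time. In E2 2 h it had 11.1, 358 and 21.0, with replicate 2 alone high. Rhd, which encodes a red cell membrane protein of the Rhesus family, had 39.7, 29.3 and 58.6 in E3 24 h, against 3.89, 5.34 and 4.42 in vehicle. The Rhd probe was not well above background on any vehicle array, so the rise is at least 6.0-fold, the mean of the E3 24 h arrays over the lowest well measured signal of the vehicle arrays (limma adjusted p = 0.0414).

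Ropn1l (chromosome 15, 31553340 to 31553399), known from the sperm flagellum, had 710, 700 and 700 in E3 24 h, against 268, 276 and 291 in vehicle. The difference was 1.34 ± 0.12 (limma adjusted p = 0.0414), and its second probe gave 1.53. Spem2 (chromosome 11, 69898900 to 69898959), named for its role in sperm maturation, had 56.7, 53.8 and 54.0 in E3 24 h, against 15.9, 17.8 and 18 in vehicle (1.67 ± 0.13, limma adjusted p = 0.0379). In both genes the E3 24 h arrays lay close together, and each kept its call in the 15-array fit with any one E3 24 h array left out.

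The number of calls in the 6-array fit moved with single arrays. Without any one vehicle array 0 probes were called, and without E3 24 h replicate 1, 2 or 3 the counts were 3, 12 and 1. The same fit gave an unadjusted p under 0.05 for 8741 probes (chance alone would give 1470.5) and an adjusted p under 0.10 for 4246. Whether the 3 arrays of a group lie apart from the 3 of the other needs no model: 3356 genes (17.3%) were higher in all 3 E3 24 h arrays than in every vehicle array, and 3801 (19.6%) were lower. Genes named for the size of their difference came only from those without overlap, and list members were named mainly for a small p. Their separation is therefore no added support. In the 6-array fit 2 of 34 matrix genes and 1 of 15 stromal markers were called among all lists below. The counts of gene groups therefore use the 15-array fit, with a threshold of adjusted p under 0.05. E3 24 h has a wider spread than the estimate pooled over the 5 groups. The p-values of the 15-array fit therefore tend to be too small for E3 24 h, and its counts too large. Each ± is the standard error of the 6-array fit. Each group is to be read against all genes tested, of which the 15-array fit called 10.6% higher and 11.7% lower. The median difference of all genes was -0.00. A count near those shares is not a result about its list. The shares themselves change when an array is left out, as given below.

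**Figure D2:**
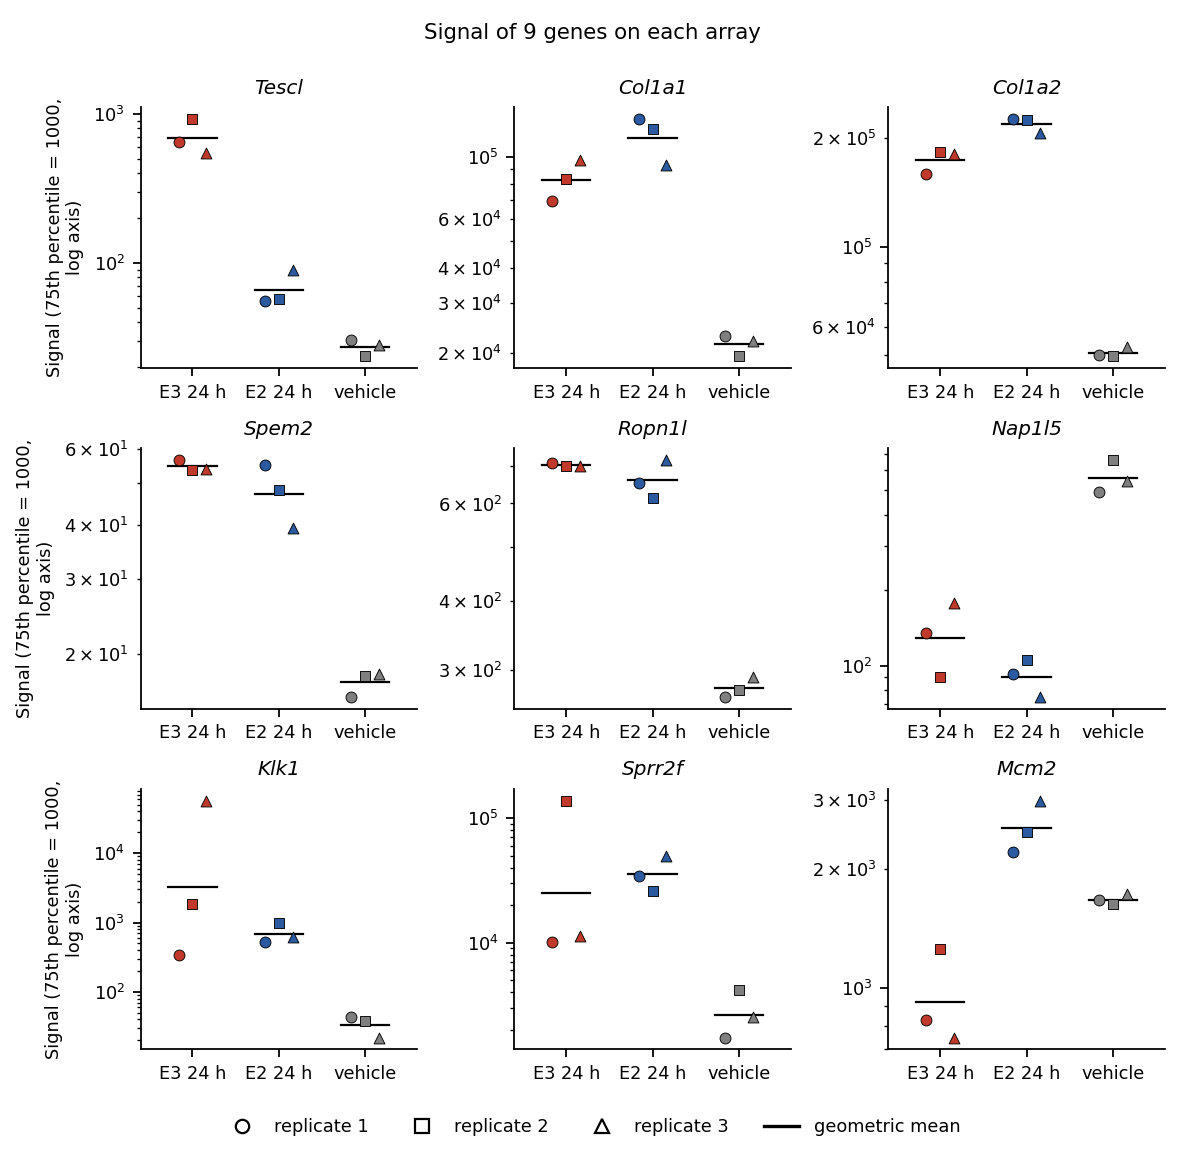
Scaled signal of 9 genes on each E3 24 h, E2 24 h and vehicle array (log axis, 75th percentile of each array = 1000); markers are replicates and bars are geometric means of 3 arrays. Tescl, Col1a1, Col1a2, Spem2 and Ropn1l lie above vehicle on all 3 E3 24 h arrays, Nap1l5 and Mcm2 lie below it, and Klk1 and Sprr2f spread most within E3 24 h.

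Without E3 24 h replicate 3 the 15-array fit called 1482 genes higher and 1818 lower (7.6% and 9.4%), of which 1325 and 1600 were among those called with it. Without replicate 2 the counts were 1235 and 1096 (6.4% and 5.6%), and without replicate 1 they were 2605 and 2869 (13.4% and 14.8%). Among the 11 arrays of scan day 1, where vehicle and E3 24 h replicates 1 and 3 lie, they were 1158 and 1308. Without vehicle replicate 1 or 2 the calls fell to 2543 and 2589 probes, against 6827 with all arrays. The direction of the calls also turned on the scale: in E3 24 h against vehicle, fit to all 15 arrays, 2786 probes were higher and 4041 lower, and with each array's median in place of its 75th percentile 4117 of 6517 were higher, as the median of all probes was then 0.08, against -0.06.

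Kallikreins and small proline-rich proteins were among the largest rises of the 15-array fit. Tissue kallikreins are secreted serine proteases, and their probes may share transcripts because the genes are near-identical copies, so single members are uncertain. Klk1 (chromosome 7, 40402636 to 40402791) had signals of 337, 1828 and 57347 in E3 24 h, against 43.1, 38.4 and 21.9 in vehicle. All E3 24 h arrays were above all vehicle arrays, but they differed widely, with replicate 3, the array with pancreatic transcripts, highest. The difference was 6.63 ± 1.73 (limma, 15 arrays, adjusted p = 0.0069; 6 arrays, 0.081), and without replicate 3 it was 4.57 (limma, 15-array fit, adjusted p = 0.0041). Klk1b5 had 1288, 5729 and 176264 in E3 24 h, against 176, 109 and 72.8 in vehicle. Klk1b24 had 27.0, 363 and 164 in E3 24 h, against 10.2, 8.35 and 8.21 in vehicle, with replicate 2 highest. The summed signal of 13 tissue kallikreins was 2463, 12359 and 356251 in E3 24 h, 4110, 7044 and 4710 in E2 24 h, and 493, 371 and 250 in vehicle. In E3 2 h it was 17265, 31803 and 27807, above E3 24 h replicates 1 and 2.

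Sprr2 genes encode small proline-rich proteins that are cross-linked beneath the membrane of lining epithelia, and their probes too may share transcripts. Sprr2f (chromosome 3, 92472374 to 92472433) had 10064, 138209 and 11261 in E3 24 h, against 1726, 4166 and 2538 in vehicle. Replicate 2 was highest, and the groups did not overlap. The difference was 3.25 ± 1.02 (limma, 15 arrays, adjusted p = 0.0237), and without replicate 2 it was 2.02 and did not pass (limma, 15-array fit, adjusted p = 0.0605). The same fit called Sprr2b, Sprr2d, Sprr2e, Sprr2g and Sprr2k higher, and not Sprr2a1. Over the 9 family members the median difference from the vehicle mean was 0.82, 3.73 and 1.21 in E3 24 h replicates 1, 2 and 3. Il1f8, an interleukin-1 family cytokine of epithelia, had 277, 1075 and 223 in E3 24 h, against 46.9, 24.0 and 62.6 in vehicle, and rose by 3.29 (limma, 15 arrays, adjusted p = 0.0057). Atp2c2 rose by 4.49 (limma, 15 arrays, adjusted p = 0.0084), with vehicle at 17.0, 15.9 and 22.3 and E3 24 h replicate 1 the lowest of its group, as given above.

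Among the largest falls of the 15-array fit were a nucleosome assembly gene, a hyaluronan synthase and an S100 gene. Nap1l5, a nucleosome assembly protein family member expressed from the paternal allele, had signals of 135, 90.2 and 178 in E3 24 h, against 492, 660 and 542 in vehicle, and fell by 2.12 ± 0.27 (limma, 15 arrays, adjusted p = 0.00086). Has2, the main hyaluronan synthase of the stroma, had 159, 44.3 and 235 in E3 24 h, against 642, 674 and 465 in vehicle, and fell by 2.31 ± 0.60 (limma, 15 arrays, adjusted p = 0.0084). S100a7a, an S100 protein of epithelia, had 37.4, 19 and 27 in E3 24 h, against 137, 96.0 and 102 in vehicle (-2.04 ± 0.28, limma, 15 arrays, adjusted p = 0.0014). Every E3 24 h array was below every vehicle array in these 3 genes, which the ranking of the falls required. Rimklb, an enzyme of N-acetylaspartylglutamate synthesis, and Trim55, a muscle RING-finger protein, fell by 2.43 and 2.42. Rimklb, Trim55 and S100a7a were above background on 2 of 3 E3 24 h arrays.

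Matrix genes were higher as a group, led by fibrillar collagens. Of 34 tested genes of the extracellular matrix, 13 rose and 1 fell in the 15-array fit, 2 rose in the 6-array fit, and the median difference was 0.55 (0.37, 0.60 and 0.64 in E3 24 h replicates 1, 2 and 3). Between 12 and 16 rose when any one E3 24 h array was left out. Col3a1, the chain of collagen III, had 71227, 64558 and 79545 in E3 24 h, against 33468, 26006 and 22719 in vehicle, and rose by 1.40 ± 0.19 (limma, 15 arrays, adjusted p = 0.0079). Its 2 dimmer probes gave 1.02 and -0.44. Lum, the keratan sulfate proteoglycan lumican of the stroma, had 114003, 94383 and 118980 in E3 24 h, against 55150, 55818 and 65098 in vehicle (0.89 ± 0.15, limma, 15 arrays, adjusted p = 0.0037). Timp1, an inhibitor of matrix metalloproteinases, had 1729, 1238 and 2173 in E3 24 h, against 875, 753 and 732 in vehicle, and rose by 1.09 ± 0.23 (limma, 15 arrays, adjusted p = 0.0066). Its relative Timp3 fell by 0.68 (limma, 15 arrays, adjusted p = 0.0212). Of 17 metalloproteinases and inhibitors, 2 rose and 1 fell, and 2 fell without replicate 1 or 3 and 0 without replicate 2.

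Genes of contractile smooth muscle, the main cell of the myometrium, were also higher. Of 20 tested, 8 rose and 0 fell in the 15-array fit (limma), and 4 rose without replicate 3. Tpm2, a tropomyosin, had 113489, 126412 and 148543 in E3 24 h, against 38542, 54374 and 64225 in vehicle, and rose by 1.33 ± 0.22 (limma, 15 arrays, adjusted p = 0.0035). Actg2, the enteric and uterine smooth muscle actin, had 37348, 36556 and 42397 in E3 24 h, against 12636, 16585 and 22880 in vehicle (1.20 ± 0.23, limma, 15 arrays, adjusted p = 0.0061). Des, which encodes the intermediate filament desmin, rose by 1.00 ± 0.23 (limma, 15 arrays, adjusted p = 0.0093). The list's median was 0.52, with 0.54, 0.31 and 0.68 in E3 24 h replicates 1, 2 and 3, against -0.31, 0.04 and 0.29 in vehicle. E3 24 h replicate 2 thus lay close to the highest vehicle array. With quantile normalization the median was 0.13 and 4 members were called. Stromal markers were not higher as a group: of 15, 4 rose and 2 fell, 7 had a difference above 0, and the median was -0.21.

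Subunits of oxidative phosphorylation, the mitochondrial chain that makes ATP, rose together by small amounts. Of 36 tested, 27 rose and 0 fell in the 15-array fit (limma), and 32 lay above vehicle on all 3 arrays. The median difference was 0.47, 0.53 and 0.61 in E3 24 h replicates 1, 2 and 3, and 23 to 28 rose with any one E3 24 h array left out. Ndufa4 had 29777, 30440 and 30463 in E3 24 h, against 16935, 16606 and 17696 in vehicle, and rose by 0.82 ± 0.12 (limma, 15 arrays, adjusted p = 0.0011). Cox5b, a subunit of complex IV, had 36384, 41225 and 44769 in E3 24 h, against 20968, 17992 and 24602 in vehicle (0.95 ± 0.17, limma, 15 arrays, adjusted p = 0.0057). With quantile normalization the list's median was 0.22, against 0.55, and 9 members were called higher.

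Of 31 proteasome subunits, which form the complex that degrades tagged proteins, 16 rose and 0 fell, with a median of 0.37. Psma5 had 37374, 41724 and 37825 in E3 24 h, against 25583, 23810 and 25930 in vehicle, and rose by 0.63 ± 0.13 (limma, 15 arrays, adjusted p = 0.0033). Without replicate 2 the count was 7, and with quantile normalization 5 were called and the median was 0.12. Of 17 genes of glucose uptake and glycolysis, 9 rose and 0 fell, with a median of 0.40. Gpi1, the second enzyme of glycolysis, had 56339, 57053 and 57482 in E3 24 h, against 31862, 33069 and 42138 in vehicle, and rose by 0.69 ± 0.15 (limma, 15 arrays, adjusted p = 0.0042); a second, dim probe gave -0.01. Without replicate 2 the count was 4, and with quantile normalization it was 4 and the median was 0.08. Of 32 cytosolic ribosomal proteins 6 rose, 15 without replicate 1 and 1 without replicate 2 or without replicate 3, and the sign of their median turned under quantile normalization (-0.15, against 0.37).

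In the 15-array fit genes of DNA replication were lower and genes of mitosis higher, the latter mostly in E3 24 h replicate 1. Of 41 genes of G1/S progression and replication, 12 fell and 0 rose in the 15-array fit (limma), and of 35 genes of mitosis 13 rose and 0 fell. Mcm2 (chromosome 6, 88958718 to 88958777), a subunit of the replicative helicase, had 830, 1254 and 750 in E3 24 h, against 1670, 1632 and 1728 in vehicle, and fell by 0.86 ± 0.21 (limma, 15 arrays, adjusted p = 0.0121). Its partner Mcm3 had 4172, 4281 and 4343 in E3 24 h, against 5847, 6032 and 7363 in vehicle (-0.58 ± 0.14, limma, 15 arrays, adjusted p = 0.0083). Cdc6, which loads the helicase, had 59.8, 79.1 and 46.6 in E3 24 h, against 102, 117 and 127 in vehicle (-0.92 ± 0.22, limma, 15 arrays, adjusted p = 0.0070). Ccnd1, the cyclin that starts the G1 to S transition, had 945, 1429 and 1300 in E3 24 h, against 3044, 2486 and 2599 in vehicle, and fell by 1.16 ± 0.20 (limma, 15 arrays, adjusted p = 0.0025). The E3 24 h and vehicle arrays did not overlap in any of these 4 genes, but list members were named mainly for a small p. Over the list 15 of 41 genes lay below vehicle on all 3 arrays and 1 above, against 19.6% of all genes below. The list's median was -0.16, -0.35 and -0.34 in E3 24 h replicates 1, 2 and 3, and 16, 8 and 8 members fell without them in that order. With each array's median as scale 8 members were called, and the median over the 3 arrays was -0.16, against -0.30.

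Mitotic genes were highest in E3 24 h replicate 1. Ccnb2, a cyclin of entry into mitosis, had 9446, 4536 and 4405 in E3 24 h, against 1560, 1804 and 2751 in vehicle, and rose by 1.54 ± 0.36 (limma, 15 arrays, adjusted p = 0.0066). Ube2c, which tags mitotic cyclins for degradation, had 1916, 1204 and 601 in E3 24 h, against 318, 355 and 572 in vehicle (1.48 ± 0.45, limma, 15 arrays, adjusted p = 0.0142). Ccnb1 had 655, 351 and 232 in E3 24 h, against 117, 124 and 214 in vehicle, with replicate 3 close to the highest vehicle array. The list's median was 1.42, 0.40 and 0.31 in replicates 1, 2 and 3, against -0.18, -0.09 and 0.33 in vehicle. Replicate 3 of E3 24 h thus lay within the vehicle range. Without E3 24 h replicate 1 the median was 0.33 with 5 members called (14.3%), near the 13.4% of all genes in that fit. On scan day 1 alone 4 were called. Of 14 replication-dependent histones 6 rose, with a median of 0.56, and 3 without replicate 2. H2ac8 had 49.0, 43.6 and 30.6 in E3 24 h, against 21.0, 16.9 and 16.1 in vehicle (1.17 ± 0.22, limma, 15 arrays, adjusted p = 0.0126); histone genes are near-identical copies, so this probe may share transcripts.

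**Figure D3:**
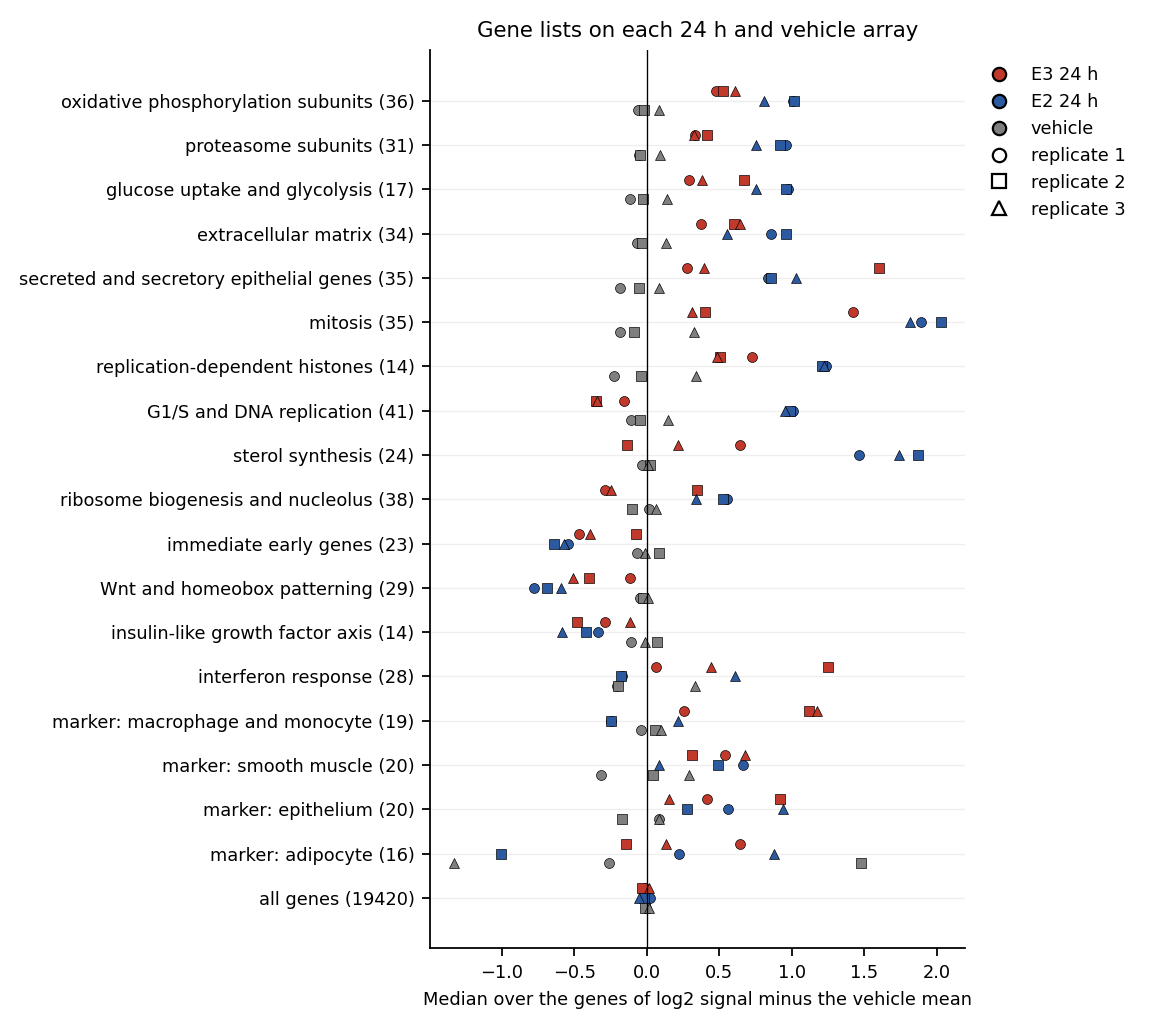
Median log2 difference from the vehicle mean over the members of 18 gene lists and over all genes, for each E3 24 h, E2 24 h and vehicle array (1 point per array). Oxidative phosphorylation and extracellular matrix medians lie close together on the 3 E3 24 h arrays (0.47 to 0.61 and 0.37 to 0.64), while mitosis is highest in E3 24 h replicate 1 (1.42) and secretory genes in replicate 2 (1.60).

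Secreted and secretory epithelial genes, many of them long known as late oestrogen products, had a median of 0.92, but replicate 2 set it. Of 35 tested, 13 rose and 1 fell in the 15-array fit (limma), and 5 rose and 0 fell without replicate 2. The list's median was 0.28, 1.60 and 0.39 in E3 24 h replicates 1, 2 and 3. Ltf, which encodes the iron-binding protein lactoferrin, had 16216, 162168 and 9913 in E3 24 h, against 7686, 5480 and 25796 in vehicle; the groups overlapped and the difference of 1.53 ± 1.12 did not pass (limma, 6 arrays, adjusted p = 0.39). C3, the third complement component, had 82696, 350463 and 110473 in E3 24 h, against 60614, 91324 and 62415 in vehicle. Lcn2, the siderophore-binding lipocalin, had 662, 10354 and 514 in E3 24 h, against 343, 326 and 505 in vehicle.

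Muc1, the membrane mucin of the luminal surface, had 529, 1226 and 555 in E3 24 h, against 150, 97.4 and 354 in vehicle, and rose by 2.04 ± 0.54 (limma, 15 arrays, adjusted p = 0.0107; 0.0095 to 0.039 without each E3 24 h array). Slpi, a secreted protease inhibitor, had 3911, 6935 and 5700 in E3 24 h, against 2167, 2815 and 1945 in vehicle (1.23 ± 0.26, limma, 15 arrays, adjusted p = 0.0131). Clu, which encodes the secreted chaperone clusterin, had 8582, 18090 and 20014 in E3 24 h, against 6519, 7196 and 6815 in vehicle (1.09 ± 0.33, limma, 15 arrays, adjusted p = 0.0165), with replicate 1 closest to vehicle. Ovgp1, the oviductal glycoprotein, had 243, 202 and 155 in E3 24 h, against 386, 356 and 372 in vehicle, and fell by 0.92 ± 0.19 (limma, 15 arrays, adjusted p = 0.0323). Of 20 epithelial markers 3 rose, 1 without replicate 2 and 6 without replicate 3; the list's median was 0.42, 0.92 and 0.15 in replicates 1, 2 and 3.

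Of 20 steroid receptors and coregulators, 2 rose and 2 fell (10% each), near the shares over all genes (10.6% and 11.7%). Without replicate 1, 5 fell, and without replicate 2, 0 rose and 1 fell. Esr1 (chromosome 10, 5343241 to 5343300) had 5070, 4802 and 4908 in E3 24 h, against 7100, 7580 and 7271 in vehicle, and fell by 0.57 ± 0.12 (limma, 15 arrays, adjusted p = 0.0069; 6 arrays, 0.065). A second, dimmer Esr1 probe had 182, 193 and 174 in E3 24 h, against 164, 199 and 212 in vehicle, a difference of -0.06 that did not pass (limma, 15 arrays, adjusted p = 0.73). On the first probe the E3 24 h arrays lay close together, and all were below vehicle. Pgr, the progesterone receptor and a classical target of estrogen receptor alpha, had 241, 603 and 193 in E3 24 h, against 277, 204 and 254 in vehicle, and Greb1, a coactivator and early target, had 526, 2060 and 395, against 434, 689 and 650. In both genes replicate 2 was the only E3 24 h array above all 3 vehicle arrays.

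Of 23 immediate early genes 5 fell and 0 rose in the 15-array fit (limma), with a median of -0.33. Between 4 and 6 fell without any one E3 24 h array. Without replicate 1 the 4 falls (17.4%) were near the 14.8% of all genes in that fit. With each array's median as scale 3 were called and the list's median was -0.19. Egr1, a zinc-finger factor, had 2225, 1410 and 2055 in E3 24 h, against 3272, 4565 and 3200 in vehicle (-0.96 ± 0.24, limma, 15 arrays, adjusted p = 0.0092). Fos, a subunit of the AP-1 factor, had 107, 220 and 76.3 in E3 24 h, against 144, 311 and 107 in vehicle, and the difference of -0.47 did not pass (limma, 15 arrays, adjusted p = 0.42). A probe of Vegfa, the growth factor of vessel permeability, had 1228, 1674 and 1276 in E3 24 h, against 3803, 3045 and 3044 in vehicle, and fell by 1.25 ± 0.18 (limma, 15 arrays, adjusted p = 0.0021). The other 2 Vegfa probes gave -0.39 and -0.36 and did not pass (limma, 15 arrays, adjusted p = 0.21 and 0.22). Of 28 early oestrogen-response genes 0 rose and 2 fell; 5 rose and 2 fell without replicate 1, and 0 rose and 5 fell without replicate 2. Their median was 0.19 and turned sign with quantile normalization (-0.02) and without replicate 2 (-0.20).

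Signalling genes of the stroma and epithelium were lower in part. Of 29 Wnt and homeobox genes 7 fell and 0 rose, with a median of -0.35. With each array's median as scale 3 were called and the list's median was -0.21. Fzd1, a Wnt receptor, had 4113, 3749 and 3963 in E3 24 h, against 6231, 6873 and 6910 in vehicle (-0.76 ± 0.13, limma, 15 arrays, adjusted p = 0.0042). Lef1, a transcription factor downstream of Wnt, had 637, 635 and 820 in E3 24 h, against 1262, 1135 and 1190 in vehicle (-0.79 ± 0.16, limma, 15 arrays, adjusted p = 0.0076). Hoxa10 had 6680, 4083 and 5286 in E3 24 h, against 8218, 8157 and 8153 in vehicle (-0.64 ± 0.20, limma, 15 arrays, adjusted p = 0.0131). In all 3 genes every E3 24 h array was below vehicle, but list members were named mainly for a small p. Over the list 8 of 29 genes lay below vehicle on all 3 arrays and 0 above, against 19.6% of all genes below.

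Of 14 genes of the insulin-like growth factor axis 5 fell and 1 rose. Without replicate 2, 2 fell, and without replicate 3, 3 fell, with 0 rising in both. With each array's median as scale 5 were called, and the list's median was -0.09, against -0.23. Pappa, a protease that cleaves growth factor binding proteins, had 1512, 980 and 1735 in E3 24 h, against 4242, 3402 and 3655 in vehicle, and fell by 1.45 ± 0.24 (limma, 15 arrays, adjusted p = 0.0026). Igfbp3, a binding protein, had 7894, 7360 and 6251 in E3 24 h, against 12989, 17096 and 11584 in vehicle (-0.94 ± 0.19, limma, 15 arrays, adjusted p = 0.0065). The ligand Igf1 had 2907, 4440 and 4185 in E3 24 h, against 2244, 3372 and 2559 in vehicle, and the overlapping groups did not pass (limma, 15 arrays, adjusted p = 0.075); of its 2 other probes, 1 gave 0.47 and 1 gave -0.63 (limma, 15 arrays, adjusted p = 0.024). Of 16 genes of retinoid metabolism 1 rose and 2 fell. Aldh1a3, which makes retinoic acid, had 922, 1332 and 1165 in E3 24 h, against 2962, 3304 and 2757 in vehicle (-1.41 ± 0.18, limma, 15 arrays, adjusted p = 0.0246; without replicate 1, 0.051); a dim second probe gave 0.26. Of 18 circadian clock genes 3 fell, 6 did without replicate 1, and 0 did without replicate 2 or without replicate 3; the collection hour of neither group is given.

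Macrophage and monocyte markers were higher, most in replicates 2 and 3. Of 19 tested, 6 rose and 0 fell in the 15-array fit (limma), 11 lay above vehicle on all 3 arrays, and the median was 0.26, 1.12 and 1.17 in E3 24 h replicates 1, 2 and 3. Their summed signal was 164190 to 390200 in E3 24 h, against 129730 to 182510 in vehicle. Adgre1, the macrophage antigen F4/80, had 4676, 7775 and 10230 in E3 24 h, against 2786, 2799 and 2735 in vehicle, and rose by 1.37 ± 0.29 (limma, 15 arrays, adjusted p = 0.0099). Fcgr1, the high-affinity IgG receptor, had 2210, 7475 and 3882 in E3 24 h, against 1340, 1504 and 1319 in vehicle (1.53, limma, 15 arrays, adjusted p = 0.0093); its second probe gave 1.02 and did not pass (limma, 15 arrays, adjusted p = 0.13). The count of called members was 13, 2 and 3 without replicates 1, 2 and 3 in that order. Adgre1 stayed called in each of these fits (limma adjusted p = 0.0032 to 0.032).

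Of 28 interferon-response genes 4 rose, 8 without replicate 1 and 1 without replicate 2, and that array was highest in the list (0.06, 1.25 and 0.44). Oas1a, which makes the activator of RNase L, had 1821, 7259 and 2045 in E3 24 h, against 857, 846 and 1579 in vehicle (1.52, limma, 15 arrays, adjusted p = 0.0381). Markers of lymphocytes, NK cells and dendritic cells (0 of 24 called), of granulocytes and mast cells (1 of 19 higher), of endothelium (1 higher and 1 lower of 18) and of adipocytes (0 of 16) gave few calls; 4 lymphocyte and 2 granulocyte markers were higher without replicate 1, and 0 endothelial ones were lower without replicate 2. The adipocyte median ran between -1.33 and 1.48 over the 3 vehicle arrays. Of 6 erythrocyte markers 3 rose, with the haemoglobin gene Hbb-bt at 55559, 33602 and 59446 in E3 24 h, against 21027, 29974 and 20337 in vehicle. Skeletal muscle markers had a median of 0.78 with 0 of 8 called, and 2 without replicate 2.

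Of 24 genes of sterol synthesis 4 rose, and 8 did without replicate 2. Mvd, an enzyme of the mevalonate pathway, had 909, 1178 and 1043 in E3 24 h, against 363, 417 and 641 in vehicle (1.18 ± 0.24, limma, 15 arrays, adjusted p = 0.0042). Of 38 genes of ribosome biogenesis 2 rose, and without replicate 2, the highest array in this list, 2 rose and 7 fell. Of 28 genes of ER folding 3 rose (6 without replicate 1, 2 without replicate 2 or 3), and of 24 chaperones 5 rose (3 without replicate 2). Of 20 genes of amino acid transport 2 rose (1 without replicate 3). The counts for ER folding (10.7%) and amino acid transport (10%) were at the share of all genes called higher (10.6%). Of 18 prostaglandin genes 1 rose, and 0 did without replicate 2 or without replicate 3. Without replicate 1, 3 prostaglandin genes rose, and the gene called with all arrays was not among them. In each of these lists 0 members were called lower with all arrays. Of 10 mesothelial markers 1 rose and 1 fell, and of 12 oviduct and ovary markers 2 rose and 2 fell. Without replicate 2 the falls were 0 in both, as was the mesothelial rise. Of 22 chemokines 0 rose (3 without replicate 1) and 1 fell, which was Cxcl12, the ligand of CXCR4, at 12412, 5559 and 10340 in E3 24 h, against 15772, 18156 and 20311 in vehicle (limma, 15 arrays, adjusted p = 0.0252; without replicate 2, 0.080).

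**Figure D4:**
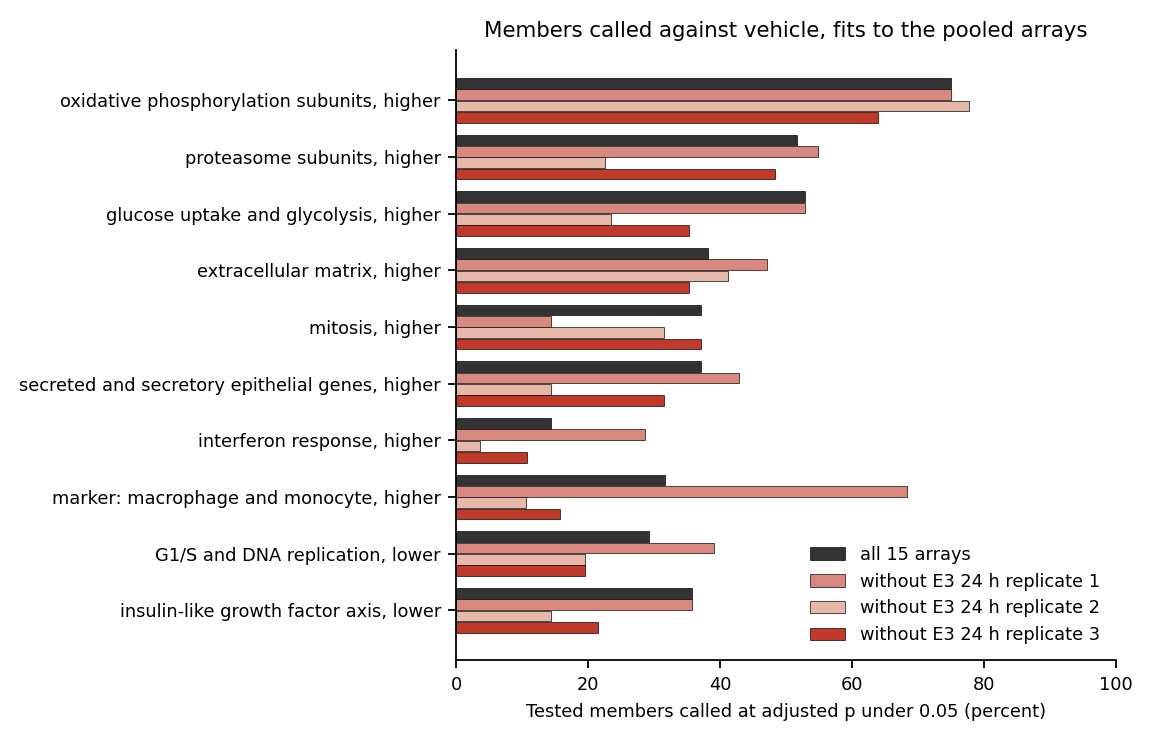
Percent of members called in the direction named beside each of 10 gene lists, in the fit to all 15 arrays and without each E3 24 h replicate. Oxidative phosphorylation keeps 23 to 28 of 36 calls, while secretory genes (13 of 35 higher with all arrays, 5 without replicate 2) and mitosis (13 of 35, 5 without replicate 1) depend on 1 array.

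Estriol and estradiol were compared directly at 24 h, at the same dose of 250 ng, as 1 pair of related compounds; they differ by the hydroxyl group named above. Genes of DNA replication and of sterol synthesis were lower after E3 than after E2 in most members in the 15-array fit (limma), as counted below. In the 6-array fit 198 genes were higher and 259 lower after E3 than after E2 (limma, 1.06% and 1.38% of 18749), and in the 15-array fit 1339 and 1854 (7.14% and 9.89%). Of the calls in E3 24 h against E2 24 h, 617 probes in all, 0 stayed without any one E2 array or without E3 24 h replicate 3, and 634 and 1217 probes were called without E3 24 h replicates 1 and 2. In E3 24 h against E2 24 h, fit to all 15 arrays, 4629 probes were called, and 2608, 2859 and 2902 without E2 replicate 1, E2 replicate 2 and E3 replicate 3.

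Of the 41 replication genes 39 were called lower after E3 than after E2 in the 15-array fit (limma), and 29 were called lower in the 6-array fit, with a median of -1.23. Between 37 and 39 were called lower in the 15-array fit without any one E3 24 h array. Mcm3 had 4172, 4281 and 4343 in E3 24 h, against 12009, 11774 and 12335 in E2 24 h, a difference of -1.50 ± 0.12 (limma, 6 arrays, adjusted p = 0.0192). Cdc6 had 59.8, 79.1 and 46.6 in E3 24 h, against 274, 248 and 355 in E2 24 h (-2.26 ± 0.24, limma adjusted p = 0.0234). Uhrf1, which maintains DNA methylation behind the fork, had 610, 454 and 342 in E3 24 h, against 2265, 1777 and 2447 in E2 24 h (-2.23 ± 0.25, limma adjusted p = 0.0234). In these 3 genes the values in vehicle lay between those of E3 24 h and E2 24 h, so that E3 and E2 stood on opposite sides of vehicle. Tk1, thymidine kinase, had 1129, 564 and 753 in E3 24 h, against 3957, 5005 and 3467 in E2 24 h (-2.39, limma adjusted p = 0.0250).

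Mitotic genes were lower after E3 than after E2 in 29 of 35 in the 15-array fit and in 3 in the 6-array fit (limma), with a median of -1.22. The 15-array count was 15 without E3 replicate 3, 18 without E2 replicate 2 and 19 without E2 replicate 1. Of 24 sterol genes 22 were lower in the 15-array fit and 10 in the 6-array fit, with a median of -1.41, and 20 to 23 in the 15-array fit without any one E3 or E2 24 h array. Sqle, squalene epoxidase, had 1582, 708 and 858 in E3 24 h, against 5413, 7356 and 6537 in E2 24 h (-2.69 ± 0.32, limma adjusted p = 0.0250), and its E3 24 h arrays spanned the vehicle values of 983, 910 and 956. Mvd had 909, 1178 and 1043 in E3 24 h, against 2540, 2834 and 2429 in E2 24 h (-1.32 ± 0.16, limma adjusted p = 0.0246). Proteasome subunits were lower in 23 of 31 and oxidative phosphorylation subunits in 19 of 36 (15-array fit, limma). The proteasome count was 13 without E2 replicate 1 and 15 without E3 replicate 3, and that of oxidative phosphorylation 13 without E2 replicate 1 or 2.

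Of 14 genes of the insulin-like growth factor axis 4 were higher and 3 lower after E3 than after E2 in the 15-array fit (limma). In the 6-array fit 2 were higher and 0 lower. Of 34 matrix genes 3 were higher and 5 lower in the 15-array fit, and 1 and 4 in the 6-array fit. Igfbp3 had 7894, 7360 and 6251 in E3 24 h, against 1149, 1347 and 1520 in E2 24 h (2.42 ± 0.17, limma, 6 arrays, adjusted p = 0.0192). Aldh1a3 had 922, 1332 and 1165 in E3 24 h, against 158, 422 and 241 in E2 24 h (2.16 ± 0.36, limma adjusted p = 0.0437). Both lay between E2 24 h and vehicle. Coch, the matrix protein cochlin, had 627, 273 and 499 in E3 24 h, against 23.2, 31.6 and 29.3 in E2 24 h (3.99 ± 0.32, limma adjusted p = 0.0192). Pamr1, a secreted protein of muscle repair, had 12079, 20269 and 18292 in E3 24 h, against 2193, 1971 and 2017 in E2 24 h (3.00, limma adjusted p = 0.0192). Inmt, an indole methyltransferase, had 7971, 36456 and 3301 in E3 24 h, against 243, 199 and 537 in E2 24 h (5.06 ± 0.87, limma adjusted p = 0.0461). Adgre1 was 1.83 ± 0.30 higher after E3 (limma adjusted p = 0.0411), with 1760, 2141 and 2196 in E2 24 h.

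Other genes did not pass between the oestrogens. Ropn1l differed by 0.09 (95% interval -0.23 to 0.41), Lum by 0.04 (-0.34 to 0.42) and Tpm2 by 0.09 (-0.43 to 0.61). Spem2 differed by 0.22 (-0.18 to 0.61). Col1a1 was at 135809, 125704 and 93247 in E2 24 h, and E3 minus E2 was -0.50 (-1.0 to -0.00; limma, 6 arrays, adjusted p = 0.22). Cytosolic ribosomal proteins, smooth muscle markers and epithelial markers had 0 members called in either fit of this comparison.

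**Figure D5:**
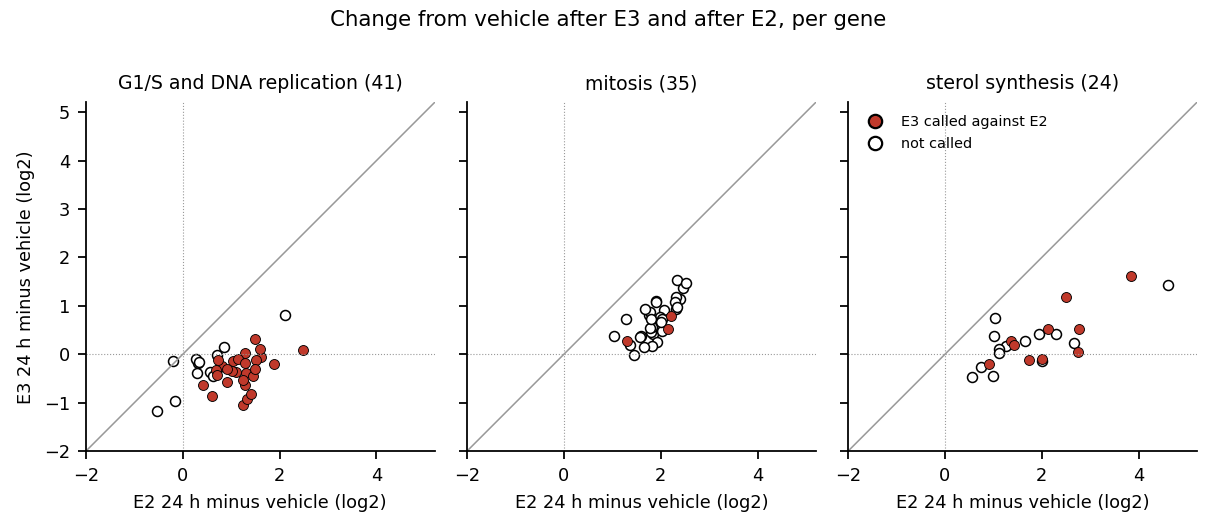
Log2 difference of E3 24 h from vehicle (vertical axis) against that of E2 24 h from vehicle (horizontal axis) for genes of G1/S and DNA replication (41), mitosis (35) and sterol synthesis (24), 1 point per gene; red points were called between E3 24 h and E2 24 h in the 6-array fit and the diagonal marks equal differences. Both axes use the same vehicle arrays, so their likeness is not a result; most points lie below the diagonal.

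Within estriol, the 24 h arrays were compared with those taken 2 h after the same dose. Immediate early genes were lower and interferon-response genes higher at the later time. In the 6-array fit 4233 genes were higher and 2996 lower at 24 h than at 2 h (limma, 21.8% and 15.4% of 19448). Of 24 immediate early genes 22 were lower, with a median of -3.37, and of 28 early oestrogen-response genes 20 were lower and 4 higher. Fos had 107, 220 and 76.3 in E3 24 h, against 8588, 6176 and 4734 in E3 2 h (-5.70 ± 0.42, limma adjusted p = 0.00081). Arc, an activity-regulated gene, had 149, 49.5 and 106 in E3 24 h, against 6991, 9627 and 8508 in E3 2 h (-6.49 ± 0.40, limma adjusted p = 0.00058). Gdf15, a stress-induced cytokine, had 247, 554 and 224 in E3 24 h, against 17751, 18791 and 21761 in E3 2 h (-5.95 ± 0.35, limma adjusted p = 0.00056). Has1, a hyaluronan synthase, had 63.2, 65.9 and 45.2 in E3 24 h, against 3032, 6544 and 3471 in E3 2 h (-6.16 ± 0.32, limma adjusted p = 0.00050).

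Col1a1 was lower at 2 h than in vehicle and higher at 24 h: it had 8531, 12080 and 11849 in E3 2 h, and 24 h minus 2 h was 2.95 ± 0.21 (limma adjusted p = 0.00075). Bmf, a pro-apoptotic BH3-only gene, had 10436, 13319 and 10487 in E3 24 h, against 868, 526 and 508 in E3 2 h (4.21 ± 0.25, limma adjusted p = 0.00056). It stood at 8803, 8842 and 9734 in vehicle, so that its 24 h level was near vehicle. Of 34 matrix genes 11 were higher and 4 lower at 24 h than at 2 h, and of 15 stromal markers 9 were higher and 2 lower. Of 28 interferon-response genes 20 were higher and 0 lower, of 19 macrophage markers 12 were higher and 1 lower, and of 36 oxidative phosphorylation subunits 16 were higher and 1 lower. Of 38 genes of ribosome biogenesis 21 were lower and 0 higher. The interferon list's median was 1.56 against E3 2 h but 0.50 against vehicle, and that of stromal markers was 0.89 and -0.21. A rise from 2 h to 24 h in these lists is therefore not a like rise over vehicle. Klk1 had 2259, 4111 and 3588 in E3 2 h; E3 24 h replicates 1 and 2 were below these and replicate 3 above, and the mean difference of 0.03 ± 1.73 carried no call (limma adjusted p = 0.99).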

How the data were processed

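Uterine RNA of 15 samples was measured on one-colour Agilent mouse arrays of 45018 spots, 43379 of them not controls. Intensity values were deposited as Feature Extraction scanner output (version 9.5.3.1 per the file headers, 9.5 per the submitters' processing notes), in which the authors' software had subtracted a spatially detrended background and detrended multiplicatively, per the file headers; values were not normalized between arrays. The deposited series table held that same processed signal (largest relative difference 0). Signals of 41174 probes were averaged over spots, 53 probes with missing values were left out, and log2 values were computed from the deposited intensities minus each array's 75th percentile. The number of arrays limits the precision.

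Probes well above background on all 3 arrays of a compared group were tested with limma 3.58.1 (lmFit, eBayes; R 4.3.3; Python 3.11.15, pandas 2.3.3, numpy 2.4.6) and Benjamini-Hochberg adjustment at 0.05. The main fit held the 6 arrays compared, and an alternative held all 15. The fit was tested on simulated data. A gene was represented by 1 probe, and other probes of the named genes had the opposite sign in 22 of 143 cases. Probes were named through RefSeq by their accession (22951), another accession (124), symbol (6582) or synonym (3077), and 8440 were not named; probe positions are those of build mm7 in the files, and whether they are exonic was not annotated here.

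Of 893 list members written, 867 were on the array. The members and lists were chosen with earlier results of these data known; the pancreas, islet, salivary, kallikrein and Sprr2 lists were added after the arrays had been examined. Named genes were, among called genes whose groups did not overlap, those with the largest differences, 15 higher and 15 lower (8 and 8 in the other comparisons), up to 6 members of each list, a panel of uterine genes and, for each E3 24 h array, the 6 genes farthest above and below its fellows. Genes named from the 15-array fit follow the same rule. Some items are not reported here.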

Additional observations from a re-analysis of the deposited data

Results flagged for a closer look

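The comparison of E3 24 h with E2 24 h asked for a test of the difference between the oestrogens at one time, and 617 probes passed it in the 6-array fit. Among the genes named by rule that passed it, differences (E3 minus E2, log2) were 5.06 for Inmt, 3.99 for Coch, 3.48 for Fgf20, 3.39 for Mlana, 3.38 for Tescl, 3.29 for Igsf23, 3.02 for Krtap17-1 and 3.00 for Pamr1. They were -3.49 for Pifo, -2.93 for Crabp1, -2.69 for Sqle, -2.58 for Gsg1l, -2.39 for Tk1, -2.29 for Ccne2, -2.26 for Cdc6 and -2.23 for Uhrf1. Pifo, a gene of primary cilia, was not well above background on any E3 24 h array (1.35, 5.51 and 1.93, against 22, 27.6 and 33.5 in E2 24 h), so it was at least 2.80-fold lower after E3. Krtap17-1, a hair keratin-associated gene, had 67.3, 194 and 205 in E3 24 h, against 23.2, 18.4 and 11.6 in E2 24 h, with replicate 1 lowest.

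Between the times, 10870 probes differed between E3 24 h and E3 2 h.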

How the results depend on the processing

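E3 24 h against vehicle in the 6-array fit (19 probes) gave 54 with the array median as scale, 46 with trended and robust variances, 10 with 1 probe per gene, 8 with a variance weight per group, 3 with quantile normalization, 1 with the mean of a gene's probes, 1 with slide as a random block, 0 without a filter on dim probes and 0 at an adjusted p under 0.01. It gave 4246 at an adjusted p under 0.10, 6827 with all 15 arrays, 7422 with array weights, and 4095 and 3997 with all 15 arrays and slide as a random block or scan day as a block. Leaving out 1 array gave 0 to 12. With the 15-array fit as base (6827), slide as a random block gave 4095, scan day as a block 3997 and scan day 1 alone 3809, and leaving out 1 array gave 2543 to 8731.

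E3 24 h against E2 24 h (617 probes) gave 4629 with all 15 arrays, 3861 with array weights, 3808 and 3202 with slide or scan day in the 15-array fit, and 0 to 1217 without 1 array; in E3 24 h against E2 24 h, fit to all 15 arrays, leaving out 1 array gave 2608 to 5829. E3 24 h against E3 2 h (10870 probes) gave 5301 to 11283 without 1 array. The spread within E3 24 h, 0.273, was 0.219 with normexp background. The cause of these moves was not tested.

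With the replicate block, 0 probes were called for E3 24 h against vehicle and 0 for E3 24 h against E2 24 h. Deviations of same-numbered E3 24 h and vehicle arrays correlated at 0.23, -0.09 and 0.06, and those of other-numbered pairs at -0.28 to 0.18. The labels do not say whether same-numbered arrays belong together. These correlations cannot decide it, because the deviations within a group of 3 depend on each other.

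No called direction of a named gene reversed under the alternatives run; of those values 75 no longer passed, 2053 passed only under the alternative and 8052 stayed on their side of the threshold. Of list medians 124 moved beyond the spread between arrays and 1060 did not. Without E3 24 h replicate 2 the calls were 5 in the secretory, 1 in the interferon and 2 in the macrophage list (limma, 15-array fit). The 3 arrays per group limit the precision, and a probe near background in one group gives only a bound.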

Other observations

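The values here lie outside the comparisons above. Exocrine pancreas genes were also above the vehicle level, at far lower signal, in E2 24 h: the median over 30 genes was 0.243%, 0.0629% and 0.0342% of the signal of E3 24 h replicate 3 in E2 24 h replicates 1, 2 and 3, against 0.0127% to 0.0146% in vehicle. Try5 had 1028, 254 and 116 in E2 24 h, against 19.5, 20.6 and 18 in vehicle.

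Crabp1, a binding protein for retinoic acid, had 74.3, 96.5 and 107 in E3 24 h, against 656, 957 and 546 in E2 24 h (-2.93, limma, 6 arrays). Stra6, the cellular importer of retinol, had 138, 108 and 125 in E3 24 h, against 248, 249 and 325 in E2 24 h (-1.14 ± 0.18, limma, 6 arrays, adjusted p = 0.0379) and 267, 223 and 262 in vehicle. Aldh1a3 of the same pathway was higher after E3 than after E2, so these 3 retinoid genes did not differ in one direction between the oestrogens.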
